A study of Mus musculus with 14 samples.

Results

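Solute carriers are membrane proteins that move nutrients, ions and metabolites into, out of and within cells, and their genes carry symbols beginning with Slc and a family number. The genes described here are the expressed solute carrier genes of mouse embryonic fibroblasts during reprogramming, taken as those whose FPKM, a count of fragments scaled by transcript length and library depth, was 1 or more in 2 or more of the 12 day 4, day 5 and day 10 libraries. By this rule 54 genes were members, of the 176 solute carrier genes listed in any of the 14 libraries and of 7460 genes of every kind that met the same limits. The members were chosen by their level, so the level itself is a description. At the limit, the second-highest FPKM was 1.09 for Slc40a1, 1.15 for Slc38a5 and 1.15 for Slc44a3, which were inside. It was 0.913 for Slc35d3, 0.759 for Slc35f1 and 0.758 for Slc16a4, which were outside. The remaining 122 listed solute carrier genes did not meet the rule, some of them because too few libraries listed them. Slc39a6 had 22.9 FPKM in replicate 1 of Cdk9-DN day 5, and Slc27a4 had 11.2 FPKM in replicate 1 of control day 10. Each was listed in only 1 of the 12 libraries.

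Embryonic fibroblasts of strain OG2/129SV had been transduced with Oct4, Sox2, Klf4 and c-Myc, together with Cdk9-DN or with a control vector, and cultured in embryonic stem cell medium with LIF. The name Cdk9-DN stands for dominant-negative Cdk9, Cdk9 being the kinase of P-TEFb that releases paused RNA polymerase II. RNA sequencing was done on Cdk9-DN cells and control cells 3, 4, 5 and 10 days after infection, with 1 library per vector at day 3 and 2 per vector on each later day. Every group carried the reprogramming factors. Whether replicates came from separate cultures is not in the labels, and each p-value therefore reflects spread among libraries that may be technical. The cells were collected as mixtures, so fewer cells of a type and less RNA per cell cannot be told apart in any value below.

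Solute carriers are grouped by sequence into families that mostly share a kind of substrate. The Slc1, Slc6, Slc7 and Slc38 families carry mainly amino acids, Slc2 and Slc16 carry sugars and monocarboxylates, and Slc30 and Slc39 move zinc. The Slc25 family serves chiefly the inner mitochondrial membrane, and Slc35 supplies nucleotide sugars to the secretory pathway. Fibroblasts depend on general uptake systems, whereas carriers of peptides, riboflavin or dietary zinc are known from the apical face of absorptive epithelia. Reprogramming of fibroblasts passes through a gain of epithelial characters.

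Members were put into substrate classes by family number, not by the substrate of each gene. By class, the 54 members comprised 9 mitochondrial carriers (Slc25), 9 amino acid carriers and 9 metal ion carriers, including the pseudogene Slc39a1-ps. Another 7 were in the nucleoside and nucleotide sugar class. The vitamin, lipid and organic ion class held 7, and the neurotransmitter, osmolyte and peptide class 5. The sugar and monocarboxylate class held 4 and the inorganic ion class 3. The last member, Slc9a3r1, is a scaffold protein named after the exchanger it binds. Slc6a14 and Slc6a15 carry amino acids but fell outside the amino acid class, and Slc25a17 is peroxisomal but fell in the mitochondrial class. Where a library listed no entry for a gene, its value was left missing, not set to 0. Each library listed 30 to 43 members, 7 members were listed in all 12 libraries, and 27 were listed in every one of the 6 groups of days 4, 5 and 10. Values of at least 1 FPKM occurred in all 6 groups for 18 members and in a single group for 5. Of 27 solute carrier genes picked by name for their known roles, 10 were members. The other 17, among them Slc2a1 and Slc7a5, had no value to analyse here, so nothing is said of their level.

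**Figure D1:**
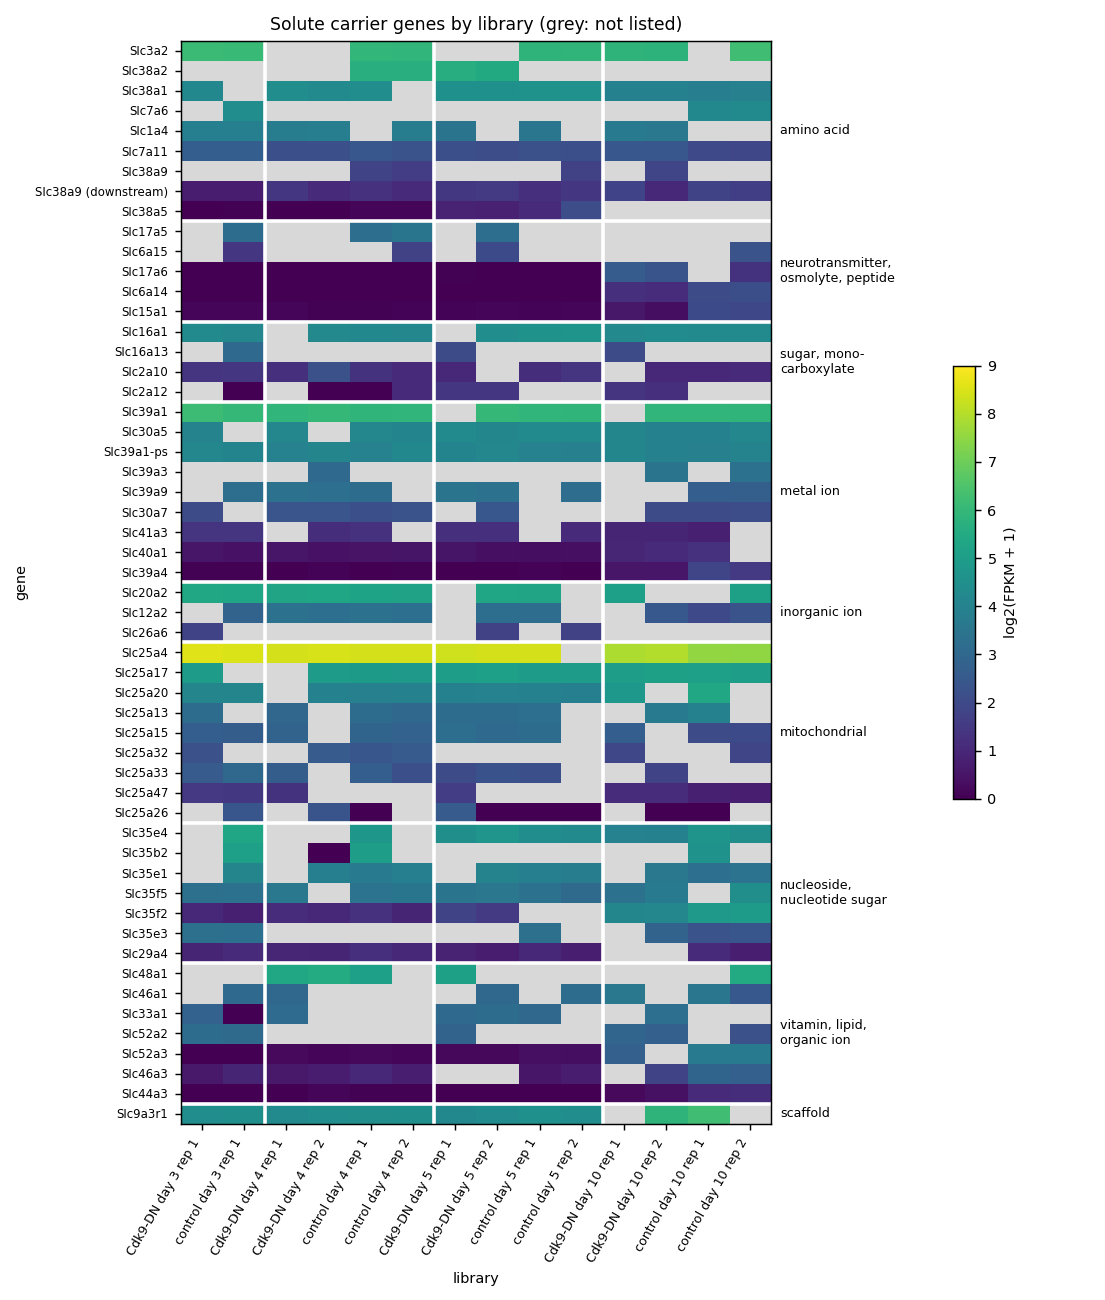
Level of each of the 54 members in each of the 14 libraries on a log2(FPKM + 1) colour scale, ordered by substrate class and, within a class, by mean level, with Cdk9-DN libraries left of control libraries on each day. Grey cells were not listed. Slc25a4 is the brightest row on every day, and Slc52a3, Slc6a14, Slc15a1, Slc39a4 and Slc44a3 are dark until day 10.

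Depth derived from the deposited bounds was 8.79 to 12.96 M fragments per library. This takes the bounds as pure counting error, an assumption that was not tested. Member values of at least 1 FPKM then stood on 2.7 to 2956.2 fragments, with a median of 345.6. Between 2 replicates the median absolute difference over members was 0.0565 to 0.0917 on the log2(FPKM + 1) scale. Replicate 2 of control day 5 stood apart from the other libraries, with 76.1% of its summed FPKM in 10 genes. No comparison between day 10 and day 4 or between vectors at day 10 uses that library's level. The library does enter the spread pooled over groups, and through it the p-values of those comparisons.

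Promoter sequences are shown for 4 members because they mark the opposite courses described below. Slc15a1, Slc6a14 and Slc44a3 reached 1 FPKM only at day 10 and were lower with Cdk9-DN, while Slc25a4 was the most abundant member, declined by day 10 and was higher with Cdk9-DN. The sequences are the 250 bases before the annotated start in RefSeq on build GRCm38.p6, a later build than the mm9 of the expression values, and were matched by symbol. They lie at chr14:121505255-121505504 on the minus strand for Slc15a1, at chrX:21714650-21714899 on the plus strand for Slc6a14, at chr3:121532345-121532594 on the minus strand for Slc44a3 and at chr8:46211063-46211312 on the minus strand for Slc25a4. Capitals mark an AP-1 motif (TGANTCA) in Slc6a14 and a GC box (GGGCGG or its reverse complement) in Slc44a3.
Slc15a1: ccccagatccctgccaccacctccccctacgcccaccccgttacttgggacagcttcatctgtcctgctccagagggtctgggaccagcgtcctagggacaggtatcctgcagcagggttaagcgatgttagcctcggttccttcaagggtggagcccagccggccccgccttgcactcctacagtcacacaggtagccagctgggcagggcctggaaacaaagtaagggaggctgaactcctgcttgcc
Slc6a14: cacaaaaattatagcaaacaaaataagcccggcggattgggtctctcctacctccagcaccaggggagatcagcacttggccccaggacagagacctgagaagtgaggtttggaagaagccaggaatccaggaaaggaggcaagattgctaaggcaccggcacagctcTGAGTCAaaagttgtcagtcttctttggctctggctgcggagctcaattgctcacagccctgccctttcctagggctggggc
Slc44a3: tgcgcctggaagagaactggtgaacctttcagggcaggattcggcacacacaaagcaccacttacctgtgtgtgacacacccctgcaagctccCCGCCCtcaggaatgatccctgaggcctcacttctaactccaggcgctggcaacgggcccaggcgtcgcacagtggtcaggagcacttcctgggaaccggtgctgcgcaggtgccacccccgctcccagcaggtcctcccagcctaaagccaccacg
Slc25a4: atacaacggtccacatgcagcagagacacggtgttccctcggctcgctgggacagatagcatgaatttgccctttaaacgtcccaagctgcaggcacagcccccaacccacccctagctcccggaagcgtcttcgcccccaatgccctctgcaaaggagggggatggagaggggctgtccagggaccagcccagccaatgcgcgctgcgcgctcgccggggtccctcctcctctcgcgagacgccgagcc

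Promoters were found for 40 members, with 44 starts between them, and were set against all 32851 promoters of the same length, searched on both strands. The GC box GGGCGG occurred in 68.2% of member starts and in 32.7% of all promoters. The E-box CACGTG occurred in 20.5% and 6.02%, the TATA box TATAAA in 2.27% and 12.4%, and the AP-1 motif TGANTCA in 4.55% and 6.75%. The median number of CpG dinucleotides was 13 at member starts and 6 over all promoters. It was 7 at the 5 starts of the members that reached 1 FPKM only at day 10 and 14 at the 39 starts of the other members. Those 5 starts belong to Slc15a1, Slc6a14, Slc44a3 and Slc17a6, the last with more than 1 start. Slc52a3, Slc39a4 and Slc40a1 had no promoter entry. The promoters of Slc15a1, Slc6a14 and Slc44a3 hold 7, 4 and 11 CpG dinucleotides, and that of Slc25a4 holds 18. None of the 4 motifs is written in the printed windows of Slc15a1 and Slc25a4. The table of all promoters includes genes silent in these cells, and these shares are descriptions of the letters only.

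The vectors were first compared at each day, which asks whether Cdk9-DN changed the level of transporter genes. At day 4 none of 36 members tested passed an adjusted p of 0.05 in limma, and 0.0336% of all genes tested did. At day 5 none of 33 passed, and 0.169% of all genes did. The 2 libraries of day 3 allowed no test. Slc25a4 had 378 FPKM in Cdk9-DN cells and 357 FPKM in control cells then, Slc7a11 had 5.50 FPKM with Cdk9-DN and 5.40 FPKM in control cells, and Slc52a3, Slc6a14 and Slc44a3 were listed at 0 in both. An unadjusted p under 0.05 was reached by 1 member at day 4, Slc7a11, where 6.52% of all genes reached it, and by 3 at day 5, Slc16a1, Slc25a17 and Slc9a3r1, where 8.47% of all genes did. By day 10 the vectors differed in 16 of 33 members tested, or 48.5%, against a background of 28.9% of all genes tested. Of these, 4 were higher and 12 lower with Cdk9-DN, where the backgrounds were 14.5% and 14.4%. The median log2 difference over the 33 members was -0.04, and over all genes it was 0.00.

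Part of this count follows from the choice of members. A total of 14 members needed their day 10 values to meet the rule, since fewer than 2 libraries of days 4 and 5 listed them at 1 FPKM or more. Slc15a1, Slc6a14, Slc39a4, Slc44a3, Slc52a3, Slc17a6 and Slc40a1 had at most 0.473 FPKM at days 3 to 5, and Slc46a3 had 1 earlier value above 1 FPKM. The other 6 were Slc7a6, Slc35b2, Slc35e3, Slc39a3, Slc52a2 and Slc16a13, which few libraries listed and which could not be tested at day 10. Of the 8 tested, 7 differed between vectors at day 10, all but Slc40a1. Slc15a1, Slc39a4 and Slc44a3 reached 1 FPKM in control libraries of day 10 only. Their lower level with Cdk9-DN at day 10 thus follows in part from the rule, and their p-values are not given as support. Among the 25 members tested at day 10 that met the rule on days 4 and 5, 3 were higher and 6 lower with Cdk9-DN, or 36%. The same limit on level was applied to all genes. The admission of these genes through day 10 bears on every count that involves that day, and none is given as support.

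Over days 4, 5 and 10 together, 8 of 27 members tested differed between vectors, 2 higher and 6 lower with Cdk9-DN, or 29.6% against 10.9% of all genes, with 4.23% of all genes higher and 6.72% lower. With quantile normalization the split was 0 higher and 5 lower. Of these 8, 6 were among the members that needed day 10 to meet the rule, and of the other 20 tested 2 differed, Slc9a3r1 and Slc25a4. The averaged log2 differences of the called members ran from -0.51 for Slc15a1 to 0.38 for Slc17a6. The call of Slc25a4 (0.13) was lost without any 1 library other than the 2 control libraries of day 5. Of these, replicate 2 did not list Slc25a4, and without replicate 1 the comparison could not be tested. The call of Slc9a3r1 (-0.22) was lost without any 1 library of days 4 and 5 or without replicate 1 of Cdk9-DN day 10. That last library does not list Slc9a3r1, and without either day 10 library that does, the comparison could not be tested. The call of Slc17a6 was lost without either control library of day 4 and without replicate 1 of Cdk9-DN day 4 or day 5.

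Epithelial markers and other cell type markers moved in the same libraries. Summed over the 3 epithelial markers listed in every library, of 11 examined (Krt18, Cldn4 and Cldn3), the level was 58.5 to 65.2 FPKM in Cdk9-DN cells at day 10, against 262 to 270.5 FPKM in control cells, and 2.43 to 8.27 FPKM in all libraries of days 3 to 5. Cldn4 was at 0 in both day 4 control libraries. Of the 5 epithelial markers tested at day 10, all 5 were lower with Cdk9-DN. The 2 fibroblast markers listed throughout, of 12 (Dcn and Lum), summed to 13.3 to 15.0 FPKM in Cdk9-DN cells, against 3.85 to 4.42 FPKM in control cells at day 10. Of the 6 fibroblast markers tested at day 10, 3 were higher with Cdk9-DN and 3 did not pass, where 14.5% of all genes were higher. Thy1 had 17.99 and 16.8 FPKM in Cdk9-DN cells, against 16.34 FPKM in 1 control library. Pdgfra had 0.383 and 0.429 FPKM in Cdk9-DN cells, against 0.365 and 0.291 FPKM in control cells. The 5 pluripotency markers listed throughout, of 12, summed to 19.7 to 20.4 FPKM in Cdk9-DN cells and 45.8 to 53.6 FPKM in control cells at day 10. They summed to at most 0.372 FPKM up to day 5, where Tdgf1, Zfp42, Dppa4 and Dppa5a were at 0 in the day 3 libraries. The 2 macrophage markers listed throughout, of 10 (Tyrobp and Lyz2), were at 0 in both Cdk9-DN libraries of day 10 and summed to 0.035 to 0.133 FPKM in the control ones, where Tyrobp was at 0. Others of that list were not near 0. Cd68 had 8.70 FPKM in 1 Cdk9-DN library of day 10, against 41.99 and 38.98 FPKM in control cells, and Cd14 had 0.814 and 1.39 FPKM in Cdk9-DN cells, against 1.75 FPKM in 1 control library. The 2 endothelial markers listed throughout, of 8, summed to 0.957 to 0.974 FPKM in Cdk9-DN cells and 3.68 to 3.81 FPKM in control cells at day 10, mostly from Cldn5. Tek, of the same list, had 23.2 FPKM in 1 Cdk9-DN library and 13.9 FPKM in 1 control library of day 10. The part of these shifts in the day 10 values of the members was not tested.

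In the neurotransmitter, osmolyte and peptide class, Slc15a1, Slc6a14 and Slc17a6 were at or near 0 up to day 5 and were listed above it at day 10. Slc15a1 (chr14:121858841-121904475, mm9) encodes PepT1, the proton-coupled uptake system for short peptides of the intestinal brush border. It had 0.483 and 0.266 FPKM in Cdk9-DN cells at day 10, against 3.09 and 2.83 FPKM in control cells. Values up to day 5 were at most 0.119 FPKM in either vector, so both vectors were higher at day 10, and the Cdk9-DN libraries lay far below the control ones. The log2 difference between vectors at day 10 was -1.53 ± 0.09 (SE; adjusted p = 7.9e-05). Slc15a1 reached 1 FPKM only in control libraries of day 10, so the rule itself favours this direction. The Cdk9-DN values rest on about 19.6 and 10.8 fragments and the control values on about 116.6 and 112.0.

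Slc6a14 (chrX:21292022-21319481, mm9) encodes a sodium- and chloride-driven carrier of neutral and cationic amino acids. It was listed at 0 in both libraries of either vector at day 4 and reached 0.0218 FPKM in a single library at day 5. By day 10 it had 1.38 and 1.2 FPKM in Cdk9-DN cells, against 3.23 and 3.47 FPKM in control cells. The vectors did not overlap, and the log2 difference was -0.93 ± 0.07 (SE; adjusted p = 0.000198). Slc17a6 encodes VGLUT2, which loads glutamate into synaptic vesicles, and it ran the other way. It had 5.10 and 4.07 FPKM in Cdk9-DN cells at day 10, against 1.52 FPKM in the single control library that listed it, and at most 0.0417 FPKM before. The log2 difference of 1.14 ± 0.12 (SE; adjusted p = 0.0015) was the highest among the members called at that day, and takes the spread of the lone control library from the other groups.

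The same is assumed wherever 1 library of a group listed a gene, which held for 8 of the 16 members called at day 10. Slc15a1, Slc6a14, Slc39a4, Slc44a3 and Slc17a6 were picked for description after their values were seen, since they stay near or below 5 FPKM. The other 2 members of this class were too thinly listed to test at day 10. Slc17a5, which exports sialic acid from lysosomes, had 8.5 FPKM in a Cdk9-DN library of day 5 and 8.60 and 10.4 FPKM in control cells at day 4. Slc6a15, a carrier of branched-chain amino acids in brain, had 3.06 FPKM in a Cdk9-DN library of day 5, and 2.38 and 3.90 FPKM in control libraries of days 4 and 10.

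**Figure D2:**
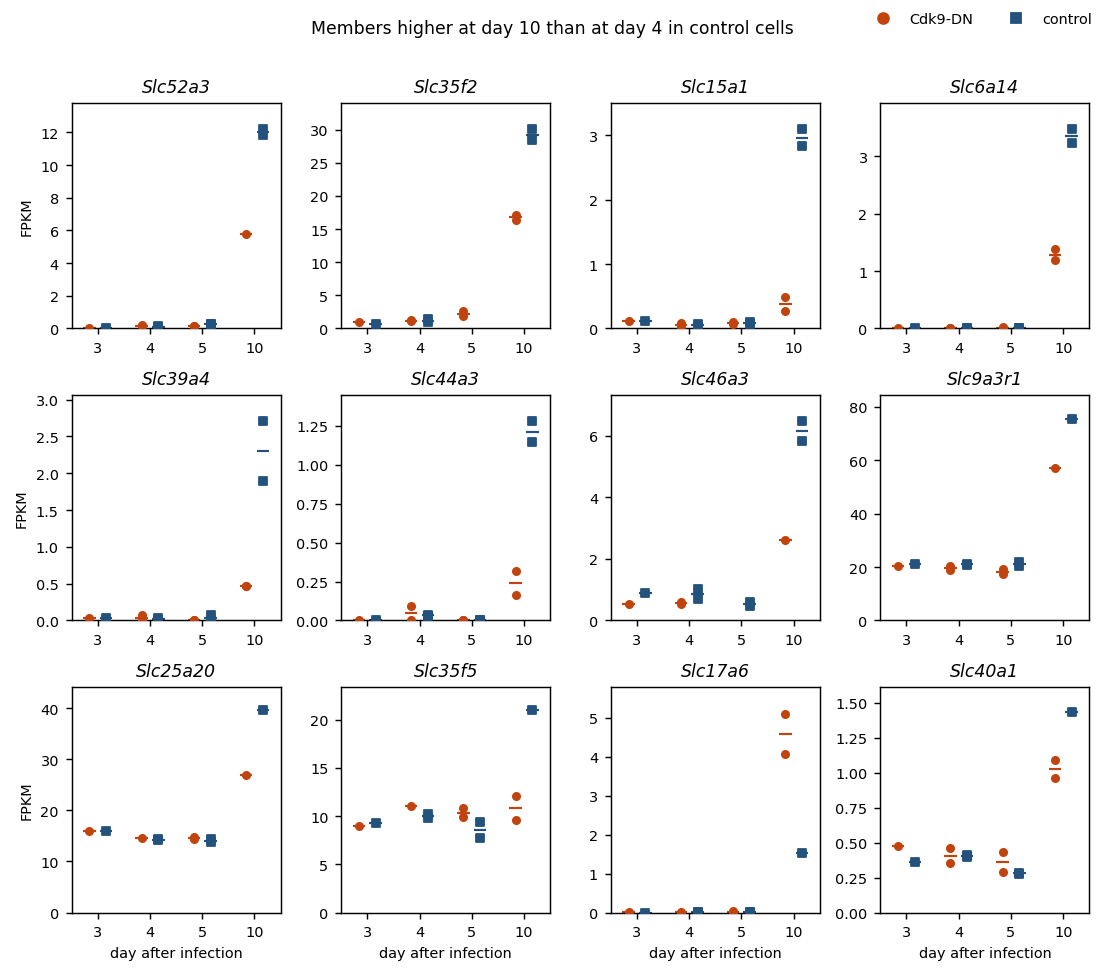
FPKM by day after infection (days evenly spaced) for 12 members that were higher at day 10 than at day 4 in control cells. Circles are Cdk9-DN libraries, squares are control libraries and short lines are group means. At day 10 the Cdk9-DN libraries lie below the control libraries in every panel but that of Slc17a6. The difference in Slc40a1 did not pass the test. The control libraries of day 10 that picked these members also enter the comparison of vectors.

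Vitamin, lipid and organic ion carriers showed the same direction in each member that could be tested at day 10, 3 of 3 lower with Cdk9-DN, where 14.4% of all genes were lower. All 3, Slc52a3, Slc46a3 and Slc44a3, needed their day 10 values to meet the rule, and nothing is read from the count. Slc52a3 (chr2:151822247-151834994, mm9) encodes an intestinal riboflavin transporter. It had 5.76 FPKM in the 1 Cdk9-DN library that listed it at day 10, against 11.9 and 12.2 FPKM in control cells, and at most 0.301 FPKM in any earlier library. Every day 10 value thus lay far above every earlier one, and the Cdk9-DN library lay below both control libraries. The log2 difference between vectors was -0.94 ± 0.09 (SE; adjusted p = 0.00098).

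Slc46a3, which encodes a lysosomal carrier, had 2.63 FPKM in 1 Cdk9-DN library at day 10, against 6.48 and 5.81 FPKM in control cells, with a log2 difference of -0.98 ± 0.15 (SE; adjusted p = 0.0081). Its values at day 4 were 0.533 and 0.590 FPKM in Cdk9-DN cells and 1.01 and 0.694 FPKM in control cells, which stand on about 1.0 to 3.7 fragments. The day 10 values stand on about 16.4 fragments with Cdk9-DN and on 52.5 and 47.1 in control cells. Slc44a3, a member of the choline transporter-like family, had 0.164 and 0.318 FPKM in Cdk9-DN cells at day 10, against 1.15 and 1.28 FPKM in control cells. It was listed at 0 in all 4 libraries of day 5 and in both of day 3, and the day 10 values stand on about 5.0 and 10.1 fragments with Cdk9-DN and 33.1 and 38.7 in control cells. The log2 difference was -0.84 ± 0.09 (SE; adjusted p = 0.0007). Slc44a3 reached 1 FPKM only in control libraries of day 10, so the rule itself favours this direction.

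The other 4 carriers of this class could not be tested at day 10. Slc52a2, the widely expressed riboflavin transporter, had 6.69 and 5.78 FPKM in Cdk9-DN cells at day 10, against 3.75 FPKM in 1 control library. Slc46a1, the proton-coupled folate transporter, had 11.3 FPKM in 1 Cdk9-DN library and 10.5 and 4.62 FPKM in control cells on that day. Its control libraries differed from each other by more than any other member's at day 10. Slc48a1, which moves heme out of endosomes and lysosomes, ranged from 33.1 to 45.2 FPKM in the 5 libraries that listed it. Slc33a1, the acetyl-CoA transporter of the endoplasmic reticulum, ranged from 7.13 to 8.77 FPKM over its 5 libraries of days 4 to 10, but was listed at 0 in the control library of day 3.

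Among the nucleoside and nucleotide sugar carriers, 3 of 4 members tested at day 10 were lower with Cdk9-DN and none was higher, where 14.4% of all genes were lower and 14.5% higher. Slc35f2 (chr9:53619342-53665968, mm9) is an orphan carrier whose human counterpart takes up the drug YM155. It had 1.21 and 1.07 FPKM in Cdk9-DN cells and 1.41 and 0.925 FPKM in control cells at day 4. In Cdk9-DN cells it had 2.61 and 1.88 FPKM at day 5, where no control library listed it. By day 10 it had reached 16.4 and 17.2 FPKM in Cdk9-DN cells and 28.4 and 30.1 FPKM in control cells. The rise was thus shared by both vectors, 14.7-fold with Cdk9-DN and 25.03-fold with the control vector relative to day 4, and the 2 vectors did not overlap at day 10. The log2 difference between vectors was -0.77 ± 0.15 (SE; adjusted p = 0.012). That call was lost without replicate 1 of Cdk9-DN day 10 or without replicate 2 of control day 10.

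Slc35f5, another orphan of the family, had 9.56 and 12.1 FPKM in Cdk9-DN cells at day 10, against 21.0 FPKM in 1 control library (log2 difference -0.90 ± 0.17 SE; adjusted p = 0.016). At day 4 it had 11.1 FPKM in 1 Cdk9-DN library and 9.84 and 10.2 FPKM in control cells, so the Cdk9-DN values of day 10 lay around those of day 4. Slc35e4 had 14.9 and 14.6 FPKM in Cdk9-DN cells at day 10, against 24.2 and 20.6 FPKM in control cells, and 21.5 and 25.2 FPKM against 20.2 and 18.9 FPKM at day 5. The log2 difference at day 10 was -0.57 ± 0.11 (SE; adjusted p = 0.016), lost without either Cdk9-DN library or without replicate 1 of control day 10. Slc35e1 did not pass at day 10, with 11.02 FPKM in 1 Cdk9-DN library, against 8.87 and 9.65 FPKM in control cells (log2 difference 0.23 ± 0.11 SE; adjusted p = 0.21).

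Of the remaining members of this class, Slc29a4, a plasma membrane carrier of monoamines, stayed between 0.627 and 1.29 FPKM in all 10 libraries of days 4 to 10 that listed it. Slc35e3 had 6.27 FPKM in 1 Cdk9-DN library and 3.94 and 4.32 FPKM in control cells at day 10. Slc35b2, which supplies the sulfate donor PAPS to the Golgi, had 32.3 and 23.1 FPKM in control libraries of days 4 and 10 and was listed at 0 in a Cdk9-DN library of day 4. A 0 of that kind can be a failed estimate, and no difference was drawn from it.

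In the metal ion class 1 of 7 members tested differed between vectors at day 10, or 14.3%, against 28.9% of all genes. The 7 include the pseudogene Slc39a1-ps, and nothing is read from the count. Slc39a1, the zinc importer ZIP1 and the most abundant of the metal ion carriers, had 59.4 FPKM in 1 Cdk9-DN library at day 10, against 59.6 and 57.9 FPKM in control cells. Its log2 difference between vectors was 0.01 ± 0.05 (SE; adjusted p = 0.88). The processed pseudogene Slc39a1-ps was listed at 23.8% to 28.8% of the Slc39a1 level in every library that listed both, so reads may be split between the 2 copies and both levels are uncertain. Slc30a5 and Slc30a7, which load zinc into the secretory pathway, had log2 differences of -0.03 ± 0.10 and 0.00 ± 0.10 (SE) at day 10, and neither passed.

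Slc39a4 (chr15:76442815-76447322, mm9) was the 1 of these 7 that differed at day 10. It met the rule only through the control libraries of day 10, which favours a lower level with Cdk9-DN. It encodes ZIP4, the zinc importer of the gut whose loss in humans causes acrodermatitis enteropathica. It had 0.473 and 0.462 FPKM in Cdk9-DN cells at day 10, against 2.70 and 1.90 FPKM in control cells, and at most 0.0723 FPKM on earlier days. The vectors did not overlap, and the log2 difference was -1.16 ± 0.12 (SE; adjusted p = 0.00065). Slc40a1, the iron exporter ferroportin, had 0.964 and 1.09 FPKM in Cdk9-DN cells and 1.44 FPKM in 1 control library at day 10, where the difference of -0.27 ± 0.11 (SE, log2) did not pass (adjusted p = 0.12).

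Slc39a9, a zinc carrier of the secretory pathway, was not listed in Cdk9-DN cells at day 10 and had 5.41 and 5.63 FPKM in control cells. Slc39a3, the importer ZIP3, was listed in 3 libraries of days 4 to 10, with 7.44 FPKM in Cdk9-DN cells at day 4, and 9.94 FPKM in Cdk9-DN cells against 9.21 FPKM in control cells at day 10. Slc41a3, a magnesium carrier, had 0.921 and 0.897 FPKM in Cdk9-DN cells at day 10, against 0.747 FPKM in 1 control library (log2 difference 0.13 ± 0.11 SE; adjusted p = 0.48).

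The mitochondrial carriers held the most abundant member and moved in both directions. Slc25a4 (chr8:47292151-47296638, mm9) encodes the adenine nucleotide translocator ANT1, which exchanges ATP of the matrix for cytosolic ADP. At day 4 it had 338 and 348 FPKM in Cdk9-DN cells and 338 and 341 FPKM in control cells. By day 10 it had 237 and 251 FPKM in Cdk9-DN cells, against 186 and 180.4 FPKM in control cells. Both vectors were lower at day 10, and the Cdk9-DN libraries lay between the day 4 level and the control libraries. The log2 difference between vectors at day 10 was 0.41 ± 0.05 (SE; adjusted p = 0.0018).

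Slc25a15, the ornithine carrier of the urea cycle, had 5.53 FPKM in 1 Cdk9-DN library at day 10, against 3.17 and 3.07 FPKM in control cells (log2 difference 0.66 ± 0.12 SE; adjusted p = 0.021). At day 4 both vectors lay between 6.06 and 6.42 FPKM. The day 10 call was lost without either control library of that day. Slc25a20, which carries acylcarnitines for fatty acid oxidation, was higher at day 10 and differed in the other direction, with 27.004 FPKM in 1 Cdk9-DN library, against 39.6 FPKM in 1 control library. The libraries of either vector lay between 13.8 and 14.8 FPKM at days 4 and 5. The log2 difference was -0.54 ± 0.07 (SE; adjusted p = 0.0098), with the spread taken wholly from the other groups.

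Slc25a13, the aspartate-glutamate carrier citrin, had 11.9 FPKM in 1 Cdk9-DN library at day 10, against 14.5 FPKM in 1 control library, a difference of -0.27 ± 0.12 (SE, log2) that did not pass (adjusted p = 0.23). Slc25a17, a peroxisomal cofactor carrier, had 32.4 and 33.6 FPKM in Cdk9-DN cells, against 32.7 and 31.9 FPKM in control cells. Those values overlap. Slc25a47 had 1.21 and 1.19 FPKM in Cdk9-DN cells at day 10, against 0.731 and 0.698 FPKM in control cells, and just missed the threshold (log2 difference 0.36 ± 0.09 SE; adjusted p = 0.075).

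Slc25a32, the folate carrier, had 2.79 FPKM in 1 Cdk9-DN library and 2.66 FPKM in 1 control library at day 10. Slc25a33, a pyrimidine nucleotide carrier, had 2.63 FPKM in 1 Cdk9-DN library at day 10 and was not listed in control cells. Slc25a26, the S-adenosylmethionine carrier, was listed at 0 in 6 of 8 libraries of days 4 to 10 and at 4.10 and 5.04 FPKM in the other 2, both Cdk9-DN libraries, of days 4 and 5. The second library of the day 5 group was at 0 beside the value of 5.04, so no difference was drawn from this gene. It sets the widest differences in the ranges of this class.

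Of 4 members of the amino acid class tested at day 10, 1 was higher and 1 lower. Over all genes 14.5% were higher and 14.4% lower, and nothing is read from a count this small. Slc3a2 encodes the CD98 heavy chain, which brings several light-chain amino acid exchangers to the cell surface. It had 56.1 and 55.4 FPKM in Cdk9-DN cells at day 10, against 74.5 FPKM in 1 control library, with a log2 difference of -0.41 ± 0.05 (SE; adjusted p = 0.0066). Slc7a11 encodes xCT, the cystine-glutamate exchanger that pairs with that heavy chain, and differed in the opposite direction. It had 4.42 and 4.40 FPKM in Cdk9-DN cells at day 10, against 2.94 and 2.81 FPKM in control cells, with a log2 difference of 0.48 ± 0.07 (SE; adjusted p = 0.0029).

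At day 4 Slc7a11 had 3.57 and 3.61 FPKM in Cdk9-DN cells and 4.51 and 3.98 FPKM in control cells, a log2 difference of -0.19 ± 0.07 (SE) that did not pass (adjusted p = 0.67). The difference between vectors itself changed between the days by 0.67 ± 0.10 (SE, log2; adjusted p = 0.0056). Slc38a1, a sodium-coupled glutamine carrier, had 14.4 and 14.5 FPKM in Cdk9-DN cells at day 10, against 13.3 and 14.1 FPKM in control cells, and did not differ by the test (adjusted p = 0.43). Its near relative Slc38a2 was not listed at day 10. It had 48.1 and 43.3 FPKM in Cdk9-DN cells at day 5 and 49.5 and 48.7 FPKM in control cells at day 4.

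The symbol Slc38a9, which names a lysosomal arginine sensor, was carried by 2 identifiers 754 bases apart on chromosome 13. The downstream one had 2.49 and 1.07 FPKM in Cdk9-DN cells at day 10, against 2.64 and 2.21 FPKM in control cells, and the values overlapped. The upstream one had 2.73 FPKM in 1 Cdk9-DN library of day 10 and 2.13 to 2.57 FPKM in 3 control libraries of days 4 and 5. Slc1a4, a neutral amino acid exchanger, had 11.8 and 11.01 FPKM in Cdk9-DN cells at day 10 and was not listed in control cells on that day. Slc7a6, a light chain of the Slc3a2 complex, had 17.6 and 18.7 FPKM in control cells at day 10 and was listed in no Cdk9-DN library. Slc38a5 was near 0 at day 4, and at day 5 had 0.825 and 0.762 FPKM in Cdk9-DN cells, against 1.15 and 3.40 FPKM in control cells, a difference that did not pass (adjusted p = 0.62). The higher control value comes from the day 5 library that stood apart.

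Sugar and monocarboxylate carriers gave no call between vectors in any comparison. Slc16a1, the lactate and pyruvate transporter MCT1, had 20.4 FPKM in 1 Cdk9-DN library at day 5, against 23.3 and 24.2 FPKM in control cells, and 17.9 and 19.4 FPKM against 18.2 and 18.5 FPKM at day 10. The day 5 difference of -0.21 ± 0.07 (SE, log2) had an adjusted p of 0.53. Slc2a10, a glucose transporter family member, ranged from 1.04 to 3.69 FPKM, with both ends in Cdk9-DN cells. Slc2a12 had 1.62 and 1.38 FPKM in Cdk9-DN cells at day 10, was not listed in control cells then, and at day 4 was listed at 0 beside 1.16 FPKM in the control group. Slc16a13 was listed only in Cdk9-DN libraries from day 4 on, at 3.13 and 3.26 FPKM.

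The inorganic ion carriers did not differ between vectors at day 10 by the test. Slc12a2, the sodium-potassium-chloride cotransporter NKCC1, had 4.52 FPKM in 1 Cdk9-DN library at day 10, against 3.01 and 3.91 FPKM in control cells (log2 difference 0.32 ± 0.15 SE; adjusted p = 0.21). Slc20a2, the phosphate transporter PiT2, had 32.4 FPKM in 1 Cdk9-DN library, against 33.4 FPKM in 1 control library. Slc26a6, an anion exchanger, had 2.33 FPKM in 1 Cdk9-DN library and 2.40 FPKM in 1 control library at day 5. Slc9a3r1 encodes NHERF1, a scaffold below the apical membrane of epithelia and no transporter. At day 10 it was listed only in replicate 1 of control and replicate 2 of Cdk9-DN, and could not be tested without either. It had 57.1 FPKM in 1 Cdk9-DN library at day 10, against 75.2 FPKM in 1 control library, and the log2 difference of -0.39 ± 0.10 (SE; adjusted p = 0.037) was lost without any 1 of the 4 libraries of day 4, without either control library of day 5 and without replicate 1 of Cdk9-DN day 10. It was also lost under quantile normalization (adjusted p = 0.18).

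**Figure D3:**
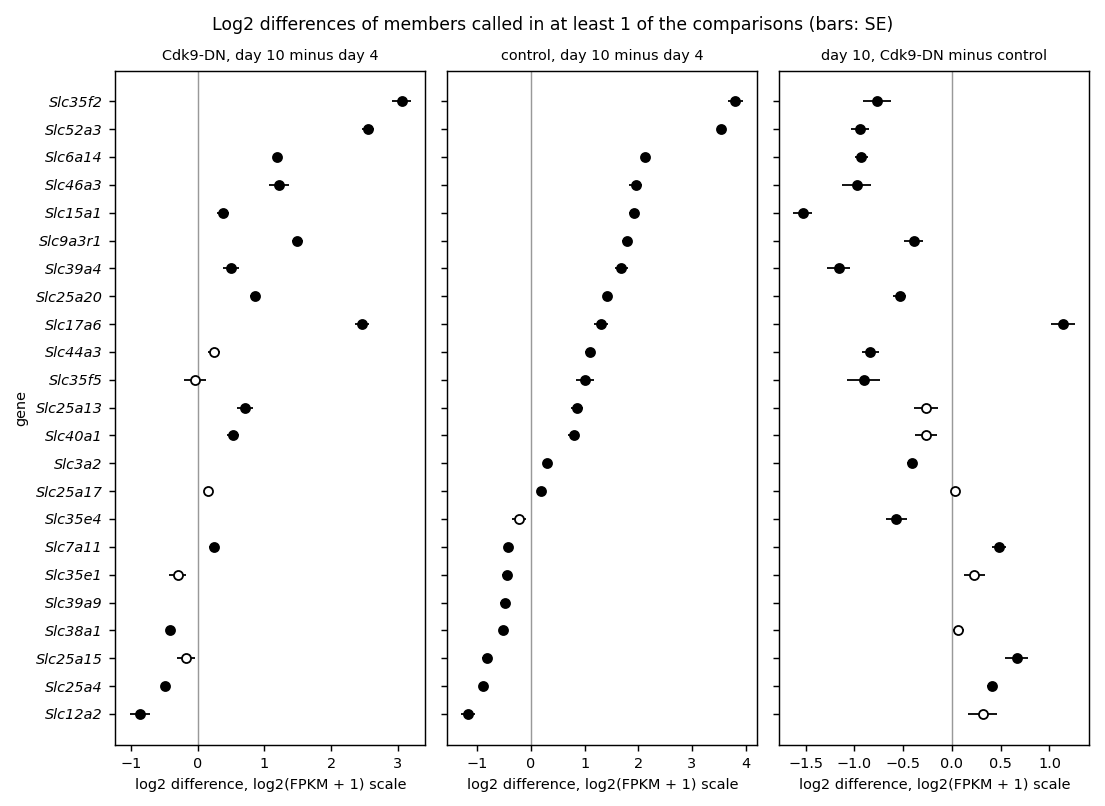
Log2 differences on the log2(FPKM + 1) scale for the 23 members called in at least 1 of 3 comparisons, with bars for the standard error. Filled points passed an adjusted p of 0.05 and open points did not, and a missing point means that the gene could not be tested. Most members that were higher at day 10 in control cells lie left of 0 in the right panel. The filled points of Slc17a6, Slc25a15, Slc7a11 and Slc25a4 lie right of 0. The control libraries of day 10 enter both the middle and the right panel, so nothing is read from how these panels go together.

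The change over time was followed within each vector from day 4 to day 10. In Cdk9-DN cells 15 of 34 members tested changed, or 44.1%, against 38% of all genes, with 12 higher and 3 lower at day 10 where the backgrounds were 24.5% and 13.5%. In control cells 22 of 34 changed, or 64.7%, against 50% of all genes, with 15 higher and 7 lower where the backgrounds were 28.2% and 21.8%. The median log2 difference was 0.03 in Cdk9-DN cells and 0.05 in control cells for the members, and 0.11 and 0.07 for all genes. Among the members that met the rule on days 4 and 5, 8 of 26 changed in Cdk9-DN cells, or 30.8%, and 14 of 26 in control cells, or 53.8%. The 2 time courses use different libraries, and whether they differ was tested only as the change in the effect given below.

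Other scalings of the libraries shifted these splits. With median-of-ratios scaling 10 members were higher and 6 lower at day 10 in Cdk9-DN cells, and with quantile normalization 7 and 4. In control cells the splits were 14 and 10, and 13 and 9. These scalings moved the median over all genes from 0.106 to -0.017 and -0.037 in Cdk9-DN cells, and from 0.068 to -0.011 and -0.072 in control cells.

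The members that rose by day 10 in control cells included some listed at 1 FPKM or more before. Slc9a3r1 had 57.1 FPKM in 1 Cdk9-DN library at day 10, against 18.98 and 20.4 FPKM at day 4. In control cells it had 75.2 FPKM in 1 library at day 10, against 20.9 and 21.3 FPKM at day 4. The log2 differences between the days were 1.49 ± 0.08 with Cdk9-DN (SE; adjusted p = 0.00017) and 1.79 ± 0.08 with the control vector (SE; adjusted p = 5.2e-05). Slc25a20 rose by 0.85 ± 0.07 with Cdk9-DN and 1.41 ± 0.06 with the control vector (SE, log2). Slc46a3 rose by 1.22 ± 0.15 with Cdk9-DN and 1.95 ± 0.12 with the control vector, and Slc35f2 rose by 3.05 ± 0.15 with Cdk9-DN and 3.81 ± 0.15 with the control vector (SE, log2).

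Slc25a13 rose in both vectors, by 0.70 ± 0.12 with Cdk9-DN and 0.86 ± 0.10 with the control vector (SE, log2). For the first of these the adjusted p was 0.027, and 0.053 with median-of-ratios scaling and 0.056 with quantile normalization. Slc35f5 rose by 0.999 ± 0.17 (SE, log2; adjusted p = 0.0055) with the control vector, and with Cdk9-DN its difference was -0.04 ± 0.17 (SE; adjusted p = 0.89). Slc3a2 rose by 0.31 ± 0.05 and Slc25a17 by 0.19 ± 0.04 in control cells (SE, log2), and both calls were lost under quantile normalization (adjusted p = 0.23 and 0.47). That of Slc25a17 was also lost without replicate 2 of control day 4 or replicate 1 of control day 10.

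Of the members near 0 before day 10, Slc52a3 showed the highest log2 differences between the days, 2.55 with Cdk9-DN and 3.55 with the control vector. In Cdk9-DN cells the differences were 2.46 for Slc17a6, 1.19 for Slc6a14, 0.53 for Slc40a1, 0.50 for Slc39a4 and 0.38 for Slc15a1. In control cells they were 2.12 for Slc6a14, 1.92 for Slc15a1, 1.69 for Slc39a4, 1.31 for Slc17a6 and 0.79 for Slc40a1. Slc44a3 showed 1.10 with the control vector, and its 0.24 with Cdk9-DN did not pass (adjusted p = 0.064). The low values make these differences small on this scale, since 1 was added before taking logarithms. For Slc15a1 in Cdk9-DN cells quantile normalization gave -0.12 (adjusted p = 0.36), the opposite sign, and the call was lost without replicate 2 of Cdk9-DN day 4 or replicate 1 of Cdk9-DN day 10. That for Slc39a4 in Cdk9-DN cells was lost without replicate 1 of either day and under quantile normalization (0.08; adjusted p = 0.73), as was that for Slc40a1 (0.18; adjusted p = 0.23).

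**Figure D4:**
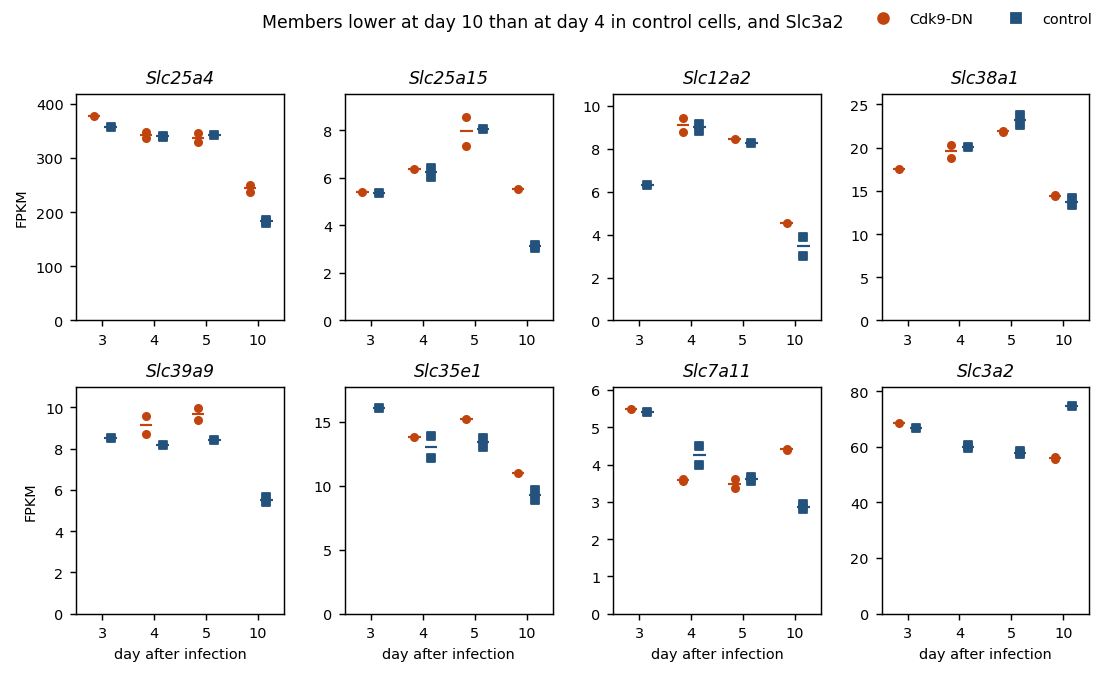
FPKM by day after infection (days evenly spaced) for 7 members that were lower at day 10 than at day 4 in control cells, and for Slc3a2. Circles are Cdk9-DN libraries, squares are control libraries and short lines are group means. At day 10 the Cdk9-DN libraries of Slc25a4, Slc25a15 and Slc7a11 lie above the control libraries, and those of Slc3a2 lie below the control library. The control libraries of day 10 that picked the falling members also enter the comparison of vectors.

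The 7 members that fell by day 10 in control cells were present at day 4 with either vector. Slc12a2 showed the steepest of these falls, to 4.52 FPKM in 1 Cdk9-DN library, against 9.45 and 8.78 FPKM at day 4. In control cells it had 3.01 and 3.91 FPKM at day 10, against 9.15 and 8.85 FPKM at day 4. The log2 differences were -0.87 ± 0.15 with Cdk9-DN (SE; adjusted p = 0.015) and -1.17 ± 0.12 with the control vector (SE; adjusted p = 0.0022). The Cdk9-DN call was lost without either Cdk9-DN library of day 4. Slc25a4 fell by 0.49 ± 0.05 with Cdk9-DN and by 0.89 ± 0.05 with the control vector (SE, log2).

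Slc38a1 fell in both vectors, by 0.42 ± 0.06 with Cdk9-DN and 0.52 ± 0.07 with the control vector (SE, log2). Slc25a15 fell by 0.81 ± 0.10 with the control vector (SE, log2; adjusted p = 0.0031), and its difference of -0.17 ± 0.13 (SE) with Cdk9-DN did not pass (adjusted p = 0.39). Slc39a9 fell by 0.49 ± 0.09 and Slc35e1 by 0.45 ± 0.09 in control cells (SE, log2). The first call was lost without replicate 1 of control day 10, and the second without that library or without replicate 2 of control day 4. Slc7a11 fell by 0.44 ± 0.07 with the control vector (SE, log2; adjusted p = 0.0017). With Cdk9-DN it rose by 0.24 ± 0.07 (SE, log2; adjusted p = 0.034), a call that was lost with either scaling and without any 1 of the 4 Cdk9-DN libraries of days 4 and 10 or the 2 control libraries of day 5.

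The change in the Cdk9-DN effect between day 4 and day 10 was tested directly. It passed in 10 of 30 members tested, or 33.3%, against 15.7% of all genes, with 3 higher and 7 lower where the backgrounds were 7.95% and 7.79%. Of these 10, 6 were members that needed day 10 to meet the rule. Of the 22 tested that met it on days 4 and 5, 4 passed, Slc7a11 and Slc25a4 upward and Slc35f5 and Slc25a20 downward. The call of Slc25a20 was lost without either control library of day 4 or any 1 library of day 5. That of Slc35f5 was lost without any 1 library of day 5, either control library of day 4 or replicate 1 of Cdk9-DN day 10. It was also lost without replicate 2 of Cdk9-DN day 4 or replicate 1 of control day 10, which do not list Slc35f5. Without the other replicate of either group it could not be tested. Both were also lost under quantile normalization (adjusted p = 0.088 for Slc25a20 and 0.068 for Slc35f5). Slc35f2 (-0.76 ± 0.21 SE, log2; adjusted p = 0.0597), Slc46a3 (-0.74 ± 0.19; adjusted p = 0.0601) and Slc25a15 (0.64 ± 0.16; adjusted p = 0.079) missed the threshold. For these 3 the effect at day 10 was called and a change from day 4 was not.

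Genes that work beside the carriers were sparsely listed. Of 16 transporter partners 1 could be tested at day 10, Emb, the embigin chaperone of monocarboxylate transporters. It had 7.88 and 8.27 FPKM in Cdk9-DN cells, against 19.2 and 20.8 FPKM in control cells (log2 difference -1.21 ± 0.09 SE; adjusted p = 0.00016). It was thus lower with Cdk9-DN while its partner Slc16a1 overlapped between vectors. Of 20 amino acid response genes 6 were tested at day 10, with 1 higher, Sesn2, and 3 lower, Atf4, Chac1 and Ddit4. Chac1, which degrades glutathione, had 1.99 and 1.90 FPKM in Cdk9-DN cells, against 4.16 and 5.25 FPKM in control cells (log2 difference -0.95 ± 0.15 SE; adjusted p = 0.0044). Atf4, the transcription factor of that response, had 99.7 and 104 FPKM in Cdk9-DN cells, against 158 FPKM in 1 control library.

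Of 20 iron, zinc and copper handling genes 4 were tested at day 10, and the metallothioneins Mt1 and Mt2, which bind zinc and copper, were higher with Cdk9-DN. Mt1 had 281 and 276.5 FPKM in Cdk9-DN cells, against 149.9 and 133 FPKM in control cells (log2 difference 0.98 ± 0.11 SE; adjusted p = 0.00099). Their direction was opposite to that of the zinc importer Slc39a4. Of 22 ATP-driven ion pump genes 4 were tested and 2 were lower, Atp1b1, a beta subunit of the sodium pump, and Atp6v1d of the vacuolar proton pump. Atp1b1 had 2.16 and 2.59 FPKM in Cdk9-DN cells, against 16.8 and 17.5 FPKM in control cells (log2 difference -2.43 ± 0.22 SE; adjusted p = 0.00083). Of 24 ABC transporter genes 4 were tested, with Abce1 higher and Abcg1 lower. Of 20 glycolysis genes 1 was tested, Pgam1, which was higher with Cdk9-DN (log2 difference 0.36 ± 0.04 SE; adjusted p = 0.0035). These lists are too thinly covered to compare with the members, and each stands against the same 28.9% of all genes called at day 10.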

How the data were processed

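RNA of 14 libraries was measured. The authors deposited 1 table of FPKM values with lower and upper bounds per library. The tools were CASAVA 1.8.2, TopHat2 2.0.10 and Cufflinks 2.2.1 and the builds mm9 and NCBIM37, per the submitters' processing notes.

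Members and gene lists were chosen with earlier results of these data known. All genes reaching 1 FPKM in 2 or more of the 12 day 4, day 5 and day 10 libraries were tested on log2(FPKM + 1) in limma 3.58.1 (R 4.3.3), as means of 6 groups with a variance trend. Folds on this scale understate the change of low genes. Spread pooled over groups can understate the day 10 spread of members with very low values before that day. A gene used its listing libraries and needed 2 or more residual degrees of freedom. Tests were two-sided, with the Benjamini-Hochberg adjustment across every gene tested in the comparison. A gene was called, or passed, at an adjusted p under 0.05. The 2 libraries of day 3 were not tested.

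The rule named 30 members: those called whose mean reached 5 FPKM in a group, 10 picked by name, and the 2 most abundant of each class. The others are given to account for all 54. An epithelial marker of the original list is not reported here. The fit was tested on simulated data. Alternatives were other scalings, pseudocounts and filters, a replicate block, the compared groups alone, the day 3 pair added, and each library left out. Python 3.11.15 and pandas 2.3.3 were used.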

Additional observations from a re-analysis of the deposited data

Results flagged for a closer look

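For 10 members the Cdk9-DN effect at day 10 differed from that at day 4 by the direct test of the difference in limma, on the log2(FPKM + 1) scale. The day 10 effect minus the day 4 effect was -1.54 for Slc15a1, -1.18 for Slc39a4, -1.04 for Slc35f5, -0.996 for Slc52a3, -0.93 for Slc6a14, -0.85 for Slc44a3 and -0.56 for Slc25a20. It was 1.15 for Slc17a6, 0.67 for Slc7a11 and 0.40 for Slc25a4. Of these, Slc15a1, Slc39a4, Slc52a3, Slc6a14, Slc44a3 and Slc17a6 needed their day 10 values to be members. For Slc15a1, Slc39a4 and Slc44a3 these were the control values of day 10 alone. The test pools spread over groups, which can understate the day 10 spread of members with very low values before. The groups hold 2 libraries, too few to test a single library's gap from the rest of its group.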

How the results depend on the processing

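The number of members called between vectors at day 10 (16) became 10 with a filter of 5 FPKM, 5 over genes listed in all 12 libraries and 5 with the compared groups alone in the fit. For the effect over days (8) it became 5 with quantile normalization, all of them lower with Cdk9-DN, 2 with a pseudocount of 0.1, 2 with the filter of 5 FPKM, 4 over genes listed in all 12 libraries and 3 with the day 3 pair added. For the change of the effect (10) it became 4 with the pseudocount of 0.1, 3 with the filter of 5 FPKM and 5 over genes listed in all 12 libraries. From day 4 to day 10 it became 9, 3 and 7 in Cdk9-DN cells (main count 15) with the filter of 5 FPKM, over genes listed in all 12 libraries and with the compared groups alone. In control cells (22) it became 5 over genes listed in all 12 libraries and 10 with the compared groups alone. The 2 filters test fewer members by construction. So do the compared groups alone, where a member with 1 listing library in a group leaves too few residual degrees of freedom. That held for 8 of the 16 calls at day 10. It also held for 6 of the 15 over time in Cdk9-DN cells and 9 of the 22 in control cells. The causes of the other shifts were not tested. Leaving out 1 library gave 11 to 16 calls at day 10, 0 at day 4, 0 to 1 at day 5, 5 to 7 over days, 7 to 10 for the change of the effect, 10 to 15 in Cdk9-DN cells over time and 15 to 23 in control cells. At day 10, without the filter on low values, Slc9a3r1 (adjusted p = 0.106), Slc35f5 (0.0571), Slc25a15 (0.0568) and Slc35e4 (0.0577) no longer passed, nor did Slc7a11 (0.0748), Slc25a4 (0.0534), Slc35e4 (0.08) and Slc39a4 (0.0569) with the compared groups alone. With the pseudocount of 0.1, the changes of the effect of Slc52a3 (adjusted p = 0.076), Slc17a6 (0.0924), Slc6a14 (0.0647), Slc44a3 (0.0726), Slc39a4 (0.0556) and Slc35f5 (0.0527) no longer passed. The log2 change of Slc15a1 in Cdk9-DN cells turned to -0.12 with quantile normalization.

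Replicate numbers did not pair the libraries. Deviations from group means correlated at -0.174 to 0.111 over 15 pairs of groups. With a replicate block 15 members were called at day 10, 0 at days 4 and 5, 6 over days, 8 for the change of the effect, 14 in Cdk9-DN cells over time and 21 in control cells. Calls lost with the block were those of Slc9a3r1 at day 10 (adjusted p = 0.065) and over days (0.079), of Slc25a4 over days (0.069), and of the change of the effect for Slc35f5 (0.083) and Slc25a20 (0.080). Slc25a13 could not be fitted with the block. Depth limits members whose values stand on few fragments, such as Slc46a3 before day 10.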

Other observations

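Some members lie close to each other and had different courses (mm9). Slc52a2 (chr15:76369373-76372560) and Slc39a4 (chr15:76442815-76447322), 70254 bases apart, had 6.69 and 0.473 FPKM in replicate 1 of Cdk9-DN day 10, and 3.75 and 1.90 FPKM in replicate 2 of control day 10. Slc25a15 (chr8:23486026-23509093) and Slc20a2 (chr8:23587172-23680079) are 78078 bases apart. In control cells Slc25a15 fell by 0.81 on the log2 scale by day 10, and Slc20a2 had a log2 difference of -0.10, which did not pass (adjusted p = 0.345). Slc38a1 and Slc38a2 are 44480 bases apart on chromosome 15. There was no day 10 value of Slc38a2 to analyse here, so their courses were not compared. Below the rule, Slc35d3, a member of the nucleotide sugar family, had 0.947 and 0.758 FPKM in Cdk9-DN cells at day 10 and 0.447 and 0.913 FPKM in control cells, against at most 0.0921 FPKM before.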
